A study of Mus musculus with 20 samples.

Results

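The Serpina genes of mouse chromosome 12 form a cluster of serine protease inhibitor genes, several of them transcribed at a high level in liver. Of these genes, 10 were followed through the liver RNA-seq libraries of 20 mice. These 10 of 55573 gene identifiers were chosen by their symbols: the paralogs Serpina1a, Serpina1b, Serpina1c, Serpina1d and Serpina1e, the paralogs Serpina3k, Serpina3m and Serpina3n, and the single genes Serpina6 and Serpina10. All 10 passed the filter on low counts and were among 13783 genes tested. Each value below is a count of uniquely mapped sense-strand reads, given as counts per 1000000 reads on genes (CPM) after TMM scaling, a correction for library composition.

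The libraries came from 2 mouse lines bred at Dummerstorf. Titan mice (line DU6) had undergone 45 years of selection for body weight, and control mice were the unselected, randomly mated line FZTDU from the same founder population. Livers of both lines were taken at 11 weeks and at 19-21 weeks, with 5 mice in each of the 4 groups, all on standard breeding feed and, in the liver work of the study, males. Neither line is inbred, so mice of a line can differ in genotype, and each line is a single breeding population, so that selection and drift cannot be told apart. Reads assigned to genes ranged from 6794935 to 23295028 per library, of which the 10 genes together took 1.41% to 2.70%. The summed hepatocyte markers lay between 90600 and 130000 CPM in every library, whereas 4 of 8 markers of pancreas acinar cells had no read in any library. In bulk tissue, fewer cells of a type and less RNA per cell cannot be told apart.

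Serpins are suicide inhibitors. A protease cleaves an exposed stretch called the reactive centre loop, and the serpin then springs into its own central sheet and holds the enzyme trapped. The Serpina1 genes encode forms of alpha-1 antitrypsin, a protein known as the main plasma inhibitor of neutrophil elastase. In mice they are present as several tandem copies, with copy number known to differ between inbred strains. The reactive centre loops of the copies differ, so the copies need not share this target, and inhibition was not measured. Serpina3k encodes a kallikrein-binding protein, Serpina3m a close relative of it, and Serpina3n an inhibitor induced in the acute phase response. Serpina10 encodes the protein Z-dependent inhibitor of coagulation factors Xa and XIa, and Serpina6 encodes corticosteroid-binding globulin, which has the serpin fold but carries glucocorticoids in plasma.

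The reactive centre loop is shown first because the paralogs differed there more than over the whole coding sequence. The stretch runs 5′ to 3′ on the coding strand from the conserved hinge of the loop to the conserved motif behind it, and capitals mark positions that differ among the 5 Serpina1 genes (GRCm38, minus strand, chr12:103853750-103853830 for Serpina1a, chr12:103728317-103728397 for Serpina1b, chr12:103895087-103895167 for Serpina1c, chr12:103763755-103763835 for Serpina1d and chr12:103947093-103947173 for Serpina1e, each within 1 coding exon).
Serpina1a: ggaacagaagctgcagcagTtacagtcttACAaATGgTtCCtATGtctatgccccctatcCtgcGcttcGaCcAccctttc
Serpina1b: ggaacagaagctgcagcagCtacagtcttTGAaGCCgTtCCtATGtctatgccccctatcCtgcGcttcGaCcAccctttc
Serpina1c: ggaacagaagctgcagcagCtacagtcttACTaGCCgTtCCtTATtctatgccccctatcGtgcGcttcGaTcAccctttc
Serpina1d: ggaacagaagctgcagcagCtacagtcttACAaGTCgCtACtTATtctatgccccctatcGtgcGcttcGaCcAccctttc
Serpina1e: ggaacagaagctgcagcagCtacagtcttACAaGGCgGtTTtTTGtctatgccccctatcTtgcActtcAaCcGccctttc

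Of these 81 bases, 18 (22.2%) differed among the 5 genes, against 86 of 1242 aligned coding bases (6.9%). Over the whole coding sequence the 5 genes were 96.3% to 98.5% identical in pairs, with Serpina1a and Serpina1c the closest. Only 20.7% of the 50-base windows of the Serpina1c transcript occurred in no other gene, against 32.6% for Serpina1a, 49.1% for Serpina1d, 52.9% for Serpina1b and 62.1% for Serpina1e. Only unique reads were counted, so a level of one paralog relative to another depends on these shares. The copy to which a read is assigned can also depend on the alleles or copy number of a mouse. Counts of single Serpina1 copies are therefore uncertain between mice and lines as well, and this was not tested. The gene model of Serpina1b spans that of Serpina1d, although the 2 models share no exon base.

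The 3 Serpina3 genes differed more, and the same stretch is given with capitals at positions that differ among them or are present in only part of them (GRCm38, plus strand, chr12:104345269-104345352 for Serpina3k, chr12:104393769-104393858 for Serpina3m and chr12:104413448-104413537 for Serpina3n, each within 1 coding exon).
Serpina3k: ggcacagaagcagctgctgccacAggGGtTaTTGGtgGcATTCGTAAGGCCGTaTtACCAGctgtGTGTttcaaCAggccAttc
Serpina3m: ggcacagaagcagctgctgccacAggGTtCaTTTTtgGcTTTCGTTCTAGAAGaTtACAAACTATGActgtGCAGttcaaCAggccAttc
Serpina3n: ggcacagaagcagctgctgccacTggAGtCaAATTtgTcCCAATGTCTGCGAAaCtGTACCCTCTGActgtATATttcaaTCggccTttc

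Among 84 loop bases present in all 3 genes, 36 (42.9%) differed, against 245 of 1251 coding bases (19.6%), and coding identity was 82.7% to 91.6%. Between 80.9% and 93.1% of their 50-base windows were unique. Serpina3k and Serpina3m share 60 exon bases, on which reads were ambiguous and not counted. For Serpina10 and Serpina6 at least 98.1% of windows were unique.

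The 5 Serpina1 genes also share their proximal promoter, printed here because Serpina1d and Serpina1e, but not the other copies, were highest in the same mice. The windows come from RefSeq (GRCm38.p6, minus strand, chr12:103863625-103863704, chr12:103738200-103738279, chr12:103904962-103905041, chr12:103773634-103773713 and chr12:103956960-103957039), and capitals mark GTTAAT, the letters that open the recognition sequence of the liver factor HNF1.
Serpina1a: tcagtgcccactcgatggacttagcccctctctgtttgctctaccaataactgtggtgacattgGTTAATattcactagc
Serpina1b: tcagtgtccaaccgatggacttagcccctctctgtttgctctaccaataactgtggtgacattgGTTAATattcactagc
Serpina1c: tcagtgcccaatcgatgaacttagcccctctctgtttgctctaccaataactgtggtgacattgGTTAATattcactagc
Serpina1d: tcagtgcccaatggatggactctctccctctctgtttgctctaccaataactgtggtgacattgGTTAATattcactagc
Serpina1e: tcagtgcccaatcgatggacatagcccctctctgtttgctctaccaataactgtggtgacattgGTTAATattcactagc

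Of the 80 bases, 10 differed between at least 2 genes, and none of these lay in the bases after GTTAAT. The stretches were cut around GTTAAT, so no difference within it could appear. The motif was searched on both strands and was found in 7.1% of 32851 promoter windows of 300 bases, and once in each of these 5. The 5 windows belong to near-identical copies, so their matches are not independent. It began 16 to 27 bases before the annotated start of Serpina1a, Serpina1b, Serpina1c and Serpina1d, and 78 bases before that of Serpina1e. A match describes letters only. RefSeq windows were held for 6 of the 10 genes.

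Levels between genes were compared per kilobase of usable exon. In the 19-21-week-old Titan livers, Serpina3k was the most abundant on this scale, with a mean of 5040 CPM per kilobase (range 4310 to 5440, n = 5). Serpina1c (mean 1180, 907 to 1360) and Serpina1b (mean 1170, 1040 to 1330) followed and did not differ beyond their spread. Below them the ranges of neighbours overlapped step by step from Serpina1a (mean 569) through Serpina3m (484), Serpina1d (278) and Serpina3n (166). Serpina1e (119, 104 to 125) and Serpina6 (79.2, 69.7 to 107) overlapped as well, and Serpina10 was lowest at 57.2 (52.9 to 67.9). This order depends on the scale for the near-identical copies. Per 1000 unique 50-base windows, Serpina1c reached 7220 ± 1180 and Serpina3k 7290 ± 814 (SD, n = 5) in 11-week-old controls, which cannot be told apart.

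At 11 weeks, 5 of the 10 genes were lower in Titan than in control liver (Serpina1a, Serpina1d, Serpina1e, Serpina3n and Serpina10) and 0 were higher, at a Benjamini-Hochberg adjusted p under 0.05 in the quasi-likelihood test of edgeR, which is what "called" means here. Over all genes tested, 7.69% were called lower and 7.23% higher in this comparison. The median log2 fold change of the 10 genes was -0.37, beside -0.02 for all genes tested, and 8 of 10 were below 0, beside 52.6% of all genes. The groups did not overlap for Serpina1a, Serpina1d and Serpina10, and none was higher without overlap, beside 6.08% and 5.84% of all genes that were lower or higher without overlap. These shares of all genes belong to the main fit only, and those under the alternatives below are not given. The number called was 8 without control mouse 2, 7 without Titan mouse 4 of this age and 8 with DESeq2. It was 3 with a minimum log2 change of 0.5 added to the rule, and 4 with total reads in place of TMM scaling, with no filter on low counts, with only the groups compared in the fit, or without any 1 of 5 mice (control mouse 1 or 5, or Titan mouse 2, 3 or 5, of this age).

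**Figure D1:**
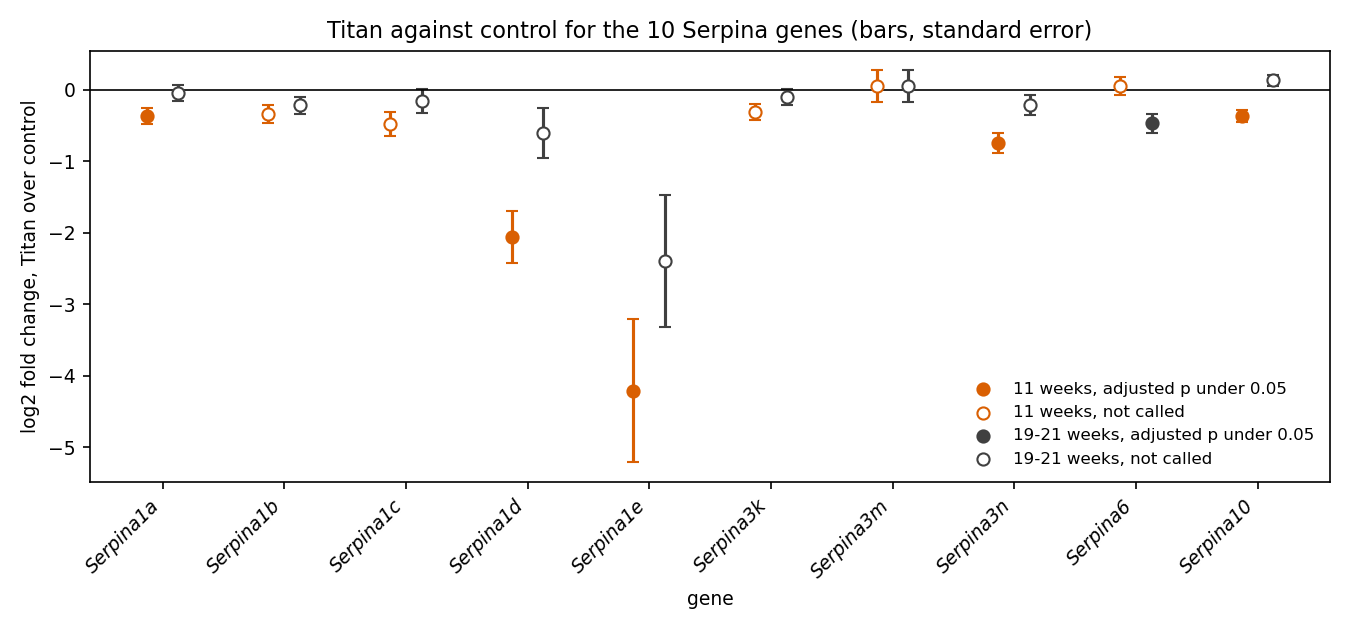
Log2 fold change of Titan over control liver (vertical axis) for the 10 genes (horizontal axis) at 11 weeks and at 19-21 weeks. Bars are standard errors derived from the edgeR test statistic, and filled points have an adjusted p under 0.05. The plot shows 5 genes filled at 11 weeks, all below 0, and Serpina6 alone is filled at 19-21 weeks.

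Among the alpha-1 antitrypsin genes, Serpina1e had the widest range. In the 11-week-old controls its level was 6756, 156, 5120.0, 5302 and 218 CPM in mice 1 to 5, and in the 11-week-old Titan mice 198, 168, 145, 229 and 206. In the 19-21-week-old controls it was 242, 4193, 234, 164 and 217, and in the Titan mice of that age 201, 169, 190.1, 203 and 196. Control mice 1, 3 and 4 at 11 weeks and control mouse 2 at 19-21 weeks thus stood at 4193 CPM or more, and the other 16 mice, among them all 10 Titan mice, at 242 CPM or less, with no value between.

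The fitted log2 fold change of Serpina1e was -4.21 (SE 1.0, adjusted p = 0.00604) at 11 weeks and -2.40 (SE 0.92, adjusted p = 0.111) at 19-21 weeks. The groups overlapped at both ages, since control mice 2 and 5 at 11 weeks lay within the Titan range and control mouse 4 at 19-21 weeks lay below all Titan mice of that age. An exact two-sided permutation test of log2 CPM at 11 weeks gave an unadjusted p of 0.0873 (5 against 5 mice), so the call rests on the count model. Without control mouse 2 of the older age, the log2 fold change at 19-21 weeks was -0.16.

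Serpina1d separated the lines fully at 11 weeks. Its level was 1399, 502, 1283, 1240.2 and 588 CPM in controls 1 to 5 and 249, 127, 280.2, 379 and 166 in the Titan mice. At 19-21 weeks the controls had 482, 1156, 419, 378 and 499 CPM and the Titan mice 558, 351, 347, 251 and 431. The lowest control at 11 weeks, 502 CPM, was above the highest Titan mouse, 379 CPM, whereas the older groups overlapped. The 4 mice highest in Serpina1d were the same 4 controls that were highest in Serpina1e.

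For Serpina1d the log2 fold change was -2.06 (SE 0.36, adjusted p = 0.000466) at 11 weeks and remained between -2.29 and -1.90 when any 1 mouse was left out. The exact permutation test of log2 CPM gave p = 0.00794, the smallest that 5 against 5 mice allow. At 19-21 weeks the log2 fold change was -0.60 (SE 0.35, adjusted p = 0.303), and it was -0.20 without control mouse 2.

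Serpina1a changed less. The 11-week-old controls had 1159.7, 1009, 950.2, 1045 and 1263 CPM and the Titan mice 941, 628, 874, 918 and 825, so that every Titan mouse was below every control, by a narrow margin (941 against 950.2 CPM). Its log2 fold change was -0.37 (SE 0.11, edgeR adjusted p = 0.0303, exact permutation p = 0.00794). The call was lost without control mouse 1 or 5 or without Titan mouse 2, 3 or 5, with adjusted p-values from 0.0512 to 0.0887. It was also lost with total reads (adjusted p = 0.143), with no filter on low counts (0.0589) and with only the groups compared (0.0702). At 19-21 weeks the ranges overlapped (939 to 1140 CPM in controls, 918 to 1262 in Titan mice) and the log2 fold change was -0.05 (SE 0.11, adjusted p = 0.847).

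Serpina1b, the most counted of the 5 copies in Titan livers, and Serpina1c were not called at 11 weeks. Serpina1b ranged from 2501 to 3942 CPM in controls and from 2073 to 3062 in Titan mice, with a log2 fold change of -0.34 (SE 0.12, adjusted p = 0.0719). Serpina1c ranged from 1519 to 2292 CPM in controls and from 1155 to 2099.6 in Titan mice, with a log2 fold change of -0.48 (SE 0.17, adjusted p = 0.0583). Both were called lower without control mouse 2 (adjusted p = 0.0233 and 0.034) and without Titan mouse 4 (0.0344 and 0.00342), and by DESeq2 (0.0431 and 0.0337). With counts over both strands the log2 fold change of Serpina1c was -0.30 (adjusted p = 0.243). The exact permutation p at 11 weeks was 0.0873 for Serpina1b and 0.0317 for Serpina1c, unadjusted. Titan mouse 4 held the highest Serpina1c level of its group, 2099.6 CPM, while the other 4 had at most 1336. At 19-21 weeks the log2 fold changes were -0.22 (SE 0.12) for Serpina1b and -0.16 (SE 0.17) for Serpina1c, with adjusted p-values of 0.296 and 0.592.

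**Figure D2:**
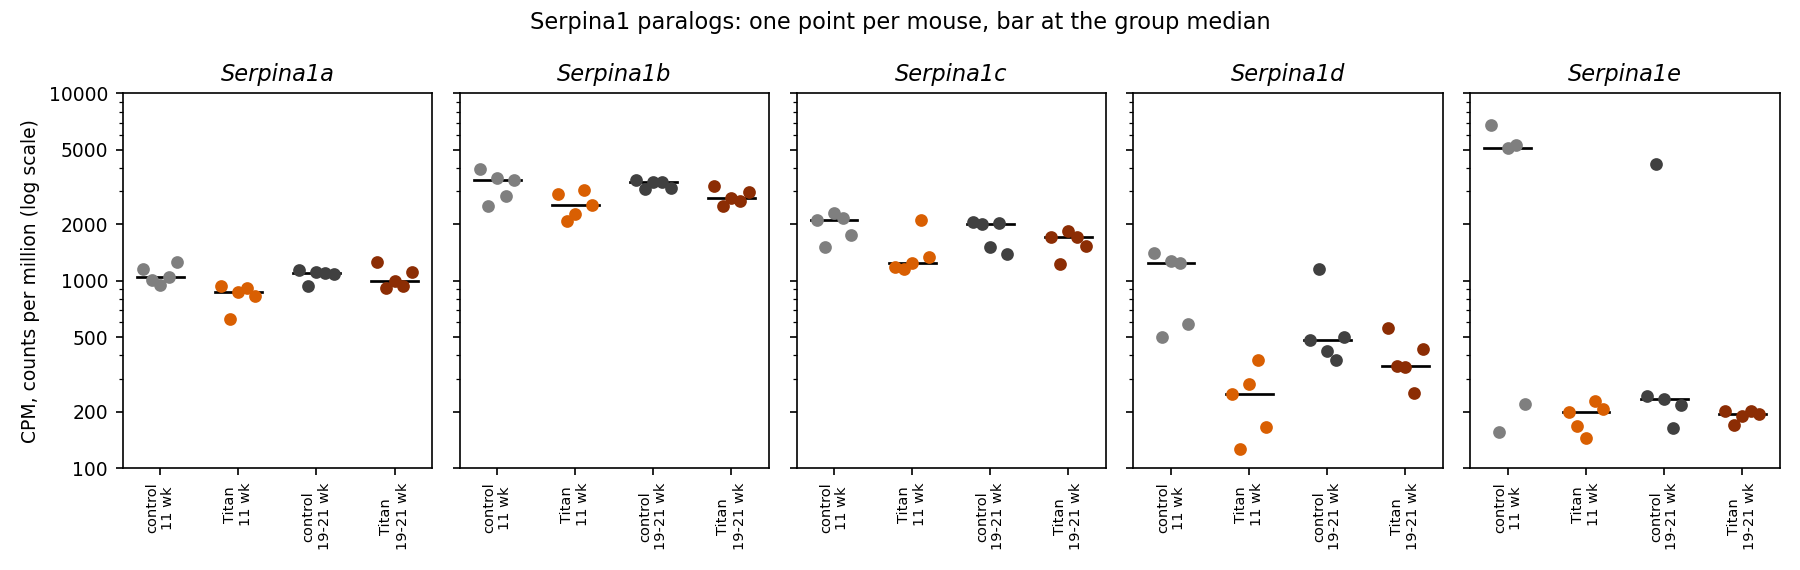
Level of each Serpina1 paralog in CPM (vertical axis, log scale) in the 4 groups, 1 point per mouse and a bar at the group median. Serpina1e lies at 4193 or more in 4 control mice and at 242 or less in the other 16 mice, and the same 4 mice lead in Serpina1d.

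Summed over the 5 copies, the Serpina1 family took 5688 to 15356 CPM in 11-week-old controls, 4150 to 6688 in Titan mice of that age, 6315 to 11385 in older controls and 5173 to 6959 in older Titan mice. The ratio of group means was -1.05 on the log2 scale at 11 weeks and -0.36 at 19-21 weeks, beside an SD of log2 sums within groups of 0.47 and 0.26, and the groups overlapped at both ages. Leaving out 1 mouse gave -1.21 to -0.89 at 11 weeks and -0.42 to -0.18 at 19-21 weeks, the latter without control mouse 2. At 11 weeks control mice 2 and 5 had sums of 5688 and 7249 CPM, against 12604 or more in the other controls. Leaving out 1 mouse does not test that split.

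The make-up of the family differed between mice as well. Serpina1e supplied 2.75% to 44% of the family count in 11-week-old controls (median 38.8%), 3.01% to 4.06% in Titan mice of that age, 2.32% to 36.8% in older controls (median 3.44%) and 2.89% to 3.51% in older Titan mice. Serpina1d supplied 8.12% to 9.84% in the younger controls and 3.05% to 5.83% in the younger Titan mice, without overlap. The family count includes Serpina1e, so a similar share in controls high or low in Serpina1e does not make Serpina1d independent of it. Among the older controls, mouse 2, high in Serpina1e, had a Serpina1d share of 10.2%, and the others had 5.35% to 7.9%. The older Titan mice had 4.36% to 8.02%, overlapping the older controls. Serpina1b was the largest component in all 10 Titan mice, with 45.1% to 53.1%.

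**Figure D3:**
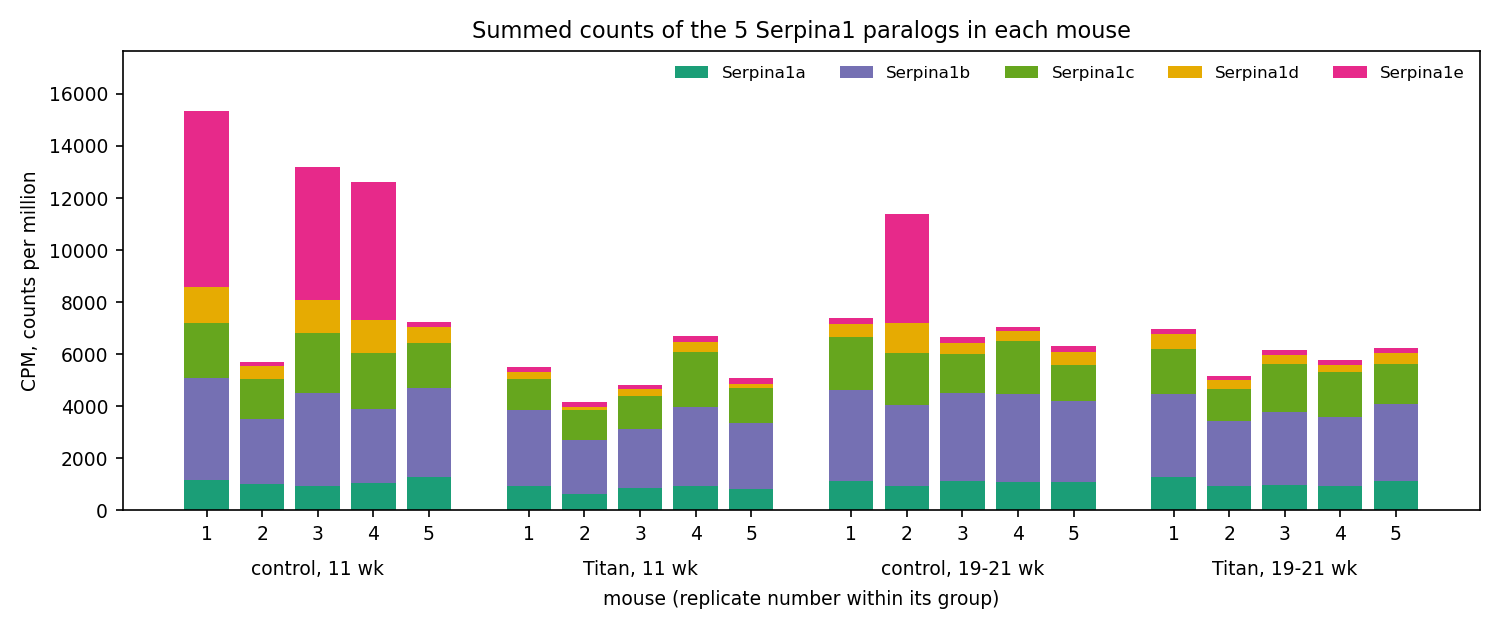
CPM of the 5 Serpina1 paralogs stacked for each of the 20 mice (horizontal axis, replicate number within group). The 4 tall bars, at 11385 or more, are the control mice in which Serpina1e supplies 36.8% or more of the sum.

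Serpina3n was the only Serpina3 gene called lower in Titan liver at 11 weeks in the main fit, with Serpina3k near the threshold (adjusted p = 0.066). Controls 1 to 5 had 469, 416, 453, 404 and 381 CPM and Titan mice 1 to 5 234, 200.4, 205, 393 and 236. Titan mouse 4 lay within the control range and the other 4 Titan mice, at 236 CPM or less, were well below the lowest control. The log2 fold change was -0.74 (SE 0.14, edgeR adjusted p = 0.000827, exact permutation p = 0.0159), and -0.95 without Titan mouse 4.

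At 19-21 weeks Serpina3n had 395, 394, 410.2, 427 and 360.4 CPM in controls and 379, 338, 299, 369 and 328 in Titan mice. In all, 3 of the 5 Titan mice were below every control, and the log2 fold change was -0.21 (SE 0.14, adjusted p = 0.358). From 11 to 19-21 weeks the log2 change in Titan liver was 0.43 (SE 0.14, adjusted p = 0.129), and without Titan mouse 4 of the younger age it was 0.64 (adjusted p = 0.000548).

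Serpina3k carried 87.9% to 92.9% of the Serpina3 family count in every mouse. The 11-week-old controls had 12569.9, 10247, 13208, 13987 and 12873 CPM and the Titan mice 10366, 9787, 9741, 10243 and 10704. Of the 5 controls, 4 were above all Titan mice and control mouse 2 lay among them. Its log2 fold change was -0.31 (SE 0.11, adjusted p = 0.066), and it was called lower without control mouse 2 (adjusted p = 0.0272) or without control mouse 5 of the older age (0.0364). DESeq2 called it as well (adjusted p = 0.0218), and the exact permutation p was 0.0238, unadjusted. At 19-21 weeks it was -0.10 (SE 0.11, adjusted p = 0.600).

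Of the 3 Serpina3 genes, Serpina3m varied most among controls relative to its mean, with a coefficient of variation of 36.6% at 11 weeks and 33.7% at 19-21 weeks, against 13.3% or less for Serpina3k and Serpina3n. It ranged from 607 to 1366 CPM in the younger controls and from 428 to 1065 in the older ones, and from 704 to 947 and 657 to 971 in the Titan groups. The log2 fold change was 0.05 at 11 weeks (SE 0.22, adjusted p = 0.929) and 0.05 at 19-21 weeks (SE 0.22, adjusted p = 0.919), and its sign changed when single mice were left out. As 95% intervals from these SEs, differences between -0.39 and 0.48 at 11 weeks were compatible with the data.

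Summed over Serpina3k, Serpina3m and Serpina3n, the ratio of group means was -0.29 on the log2 scale at 11 weeks and -0.10 at 19-21 weeks, beside an SD of log2 sums within groups of 0.13 and 0.18. Both pairs of groups overlapped.

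Serpina10, the inhibitor of factors Xa and XIa, was lower in every 11-week-old Titan mouse than in every control. The controls had 249, 229.6, 213, 240.0 and 221 CPM and the Titan mice 181, 158, 167, 209.9 and 173. The log2 fold change was -0.37 (SE 0.08, edgeR adjusted p = 0.00320, exact permutation p = 0.00794), and it stayed between -0.44 and -0.33 with any 1 mouse left out.

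At 19-21 weeks the controls had 178, 178, 181, 186 and 192 CPM and the Titan mice 238, 185, 188, 189 and 201, overlapping, with a log2 fold change of 0.13 (SE 0.08, adjusted p = 0.354). All 5 older controls were below all 5 younger controls, a pattern that 0.508% of all genes showed in that comparison. The edgeR log2 change with age in controls was -0.33 (SE 0.08, adjusted p = 0.165), and the difference between the line effects at the 2 ages was 0.50 (SE 0.12, unadjusted p = 0.000296, adjusted p = 0.156). With DESeq2 the adjusted p-values were 0.0164 and 0.01. The interaction was also called by edgeR without the younger Titan mouse 4 (0.57, adjusted p = 0.021).

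Serpina6, corticosteroid-binding globulin, was the only one of the 10 genes called at 19-21 weeks. The controls had 219, 189, 198, 188 and 174 CPM and the Titan mice 126, 127, 133, 188 and 123. Of the 5 Titan mice, 4 were below all controls, and mouse 4 lay inside the control range. The log2 fold change was -0.47 (SE 0.13, edgeR adjusted p = 0.0309, exact permutation p = 0.0238).

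This call was close to its threshold. It was lost without control mouse 1 or 3 or without Titan mouse 1, 2, 3 or 5, with adjusted p-values from 0.0568 to 0.0775, and with total reads in place of TMM scaling (0.0597). At 11 weeks Serpina6 was 169, 176, 174, 167 and 114 CPM in controls and 174, 166, 129, 156 and 201 in Titan mice. These ranges overlapped and the log2 fold change was 0.05 (SE 0.13, adjusted p = 0.875), or -0.06 without control mouse 5 and -0.04 without Titan mouse 5. The difference between the line effects at the 2 ages was -0.52 (SE 0.19, adjusted p = 0.405).

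**Figure D4:**
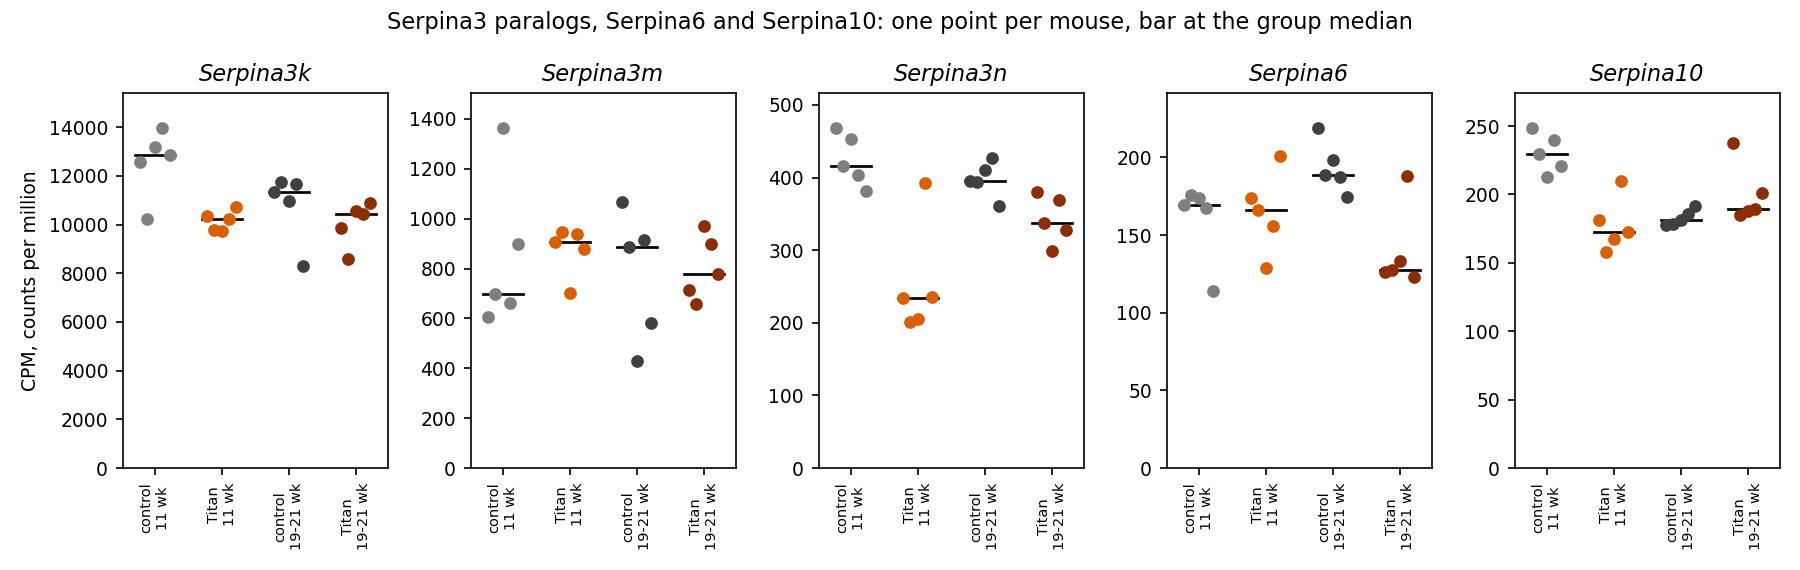
CPM (vertical axis, from 0 with a scale per gene) of Serpina3k, Serpina3m, Serpina3n, Serpina6 and Serpina10 in the 4 groups, 1 point per mouse and a bar at the group median. Serpina10 separates the 11-week-old groups, and Titan mouse 4 of that age is the point at 393 in the Serpina3n panel.

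At 19-21 weeks, then, 1 of 10 genes was called lower and 0 higher, beside 4.88% of all genes called lower and 4.24% higher, and no gene of the 10 separated the groups, beside 4.0% of all genes lower and 3.62% higher without overlap. The count was 0 without each of the 6 mice named for Serpina6. The median log2 fold change of the 10 genes was -0.19, beside 0.01 for all genes tested. The comparisons at the 2 ages use different mice.

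With age, 0 of the 10 genes were called by edgeR in either line, where 1.25% of all genes were called in Titan liver and 0.0871% in control liver. At an unadjusted p under 0.05 there were 3 in Titan liver (Serpina1a, Serpina3n and Serpina10) and 2 in control liver (Serpina1d and Serpina10), beside 15.6% and 6.15% of all genes. DESeq2 called 0 and 1. Without Titan mouse 4 of the younger age, Serpina3n was called in Titan liver. For the difference between the line effects at the 2 ages, edgeR called 0 of 10 genes and 0.00726% of all genes. At an unadjusted p under 0.05 there were 4 (Serpina1d, Serpina3n, Serpina6 and Serpina10), beside 8.92% of all genes, DESeq2 called 1, and 2 genes, Serpina3n and Serpina10, were called without that mouse. The shares of all genes are those of the main fit, not of DESeq2 or of the fits without a mouse. Titan and control comparisons and age comparisons share mice, so the values for the comparisons are not independent of one another.

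The counts for the gene lists that follow are to be read beside the share of all genes called, 7.23% higher and 7.69% lower at 11 weeks and 4.24% higher and 4.88% lower at 19-21 weeks. The other 15 serpin genes of the cluster were mostly low in liver. Of the 11 tested, 2 were lower in Titan liver at 11 weeks and 0 at 19-21 weeks, with median log2 fold changes of -0.10 and 0.04. Serpina9 fell from 8.37 to 13.5 CPM in controls to 1.56 to 7.05 in Titan mice (log2 fold change -1.85, SE 0.31, adjusted p = 0.000393). Serpina5, protein C inhibitor, fell by 1.12 on the log2 scale (SE 0.35, adjusted p = 0.0355), from 1.17 to 2.11 CPM in controls to 0.756 to 0.894. Serpina3c, the most abundant of these genes, lay between 369 and 920 CPM in all groups and had a log2 fold change of 0.14 at 11 weeks (SE 0.21, adjusted p = 0.721). Serpina16 had no read.

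Of 8 tested genes that neighbour the cluster, 1 was lower at 11 weeks. It was Ifi27, an interferon-inducible gene, with a log2 fold change of -0.87 (SE 0.24, adjusted p = 0.0171). None of the 8 was called at 19-21 weeks. Dicer1, which processes microRNAs, had a log2 fold change of -0.11 (SE 0.09, adjusted p = 0.439) at 11 weeks.

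Of 12 serpin genes tested on other chromosomes, 2 were higher and 2 lower at 11 weeks, and 2 higher and 1 lower at 19-21 weeks. Serpind1, heparin cofactor II, was lower at both ages (log2 fold changes -0.36 and -0.40, SE 0.08 each, adjusted p = 0.00224 and 0.00189). Serpinf2, alpha-2 antiplasmin, was lower at 11 weeks (-0.51, SE 0.10, adjusted p = 0.00168), with -0.26 (adjusted p = 0.123) at 19-21 weeks. Serpine2, protease nexin-1, was higher at 19-21 weeks (1.76, SE 0.40, adjusted p = 0.00897).

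Among 9 tested proteases and cofactors that serpins act on or with, 4 were lower at 11 weeks (F10, F11, Ctsl and Kng1) and 2 at 19-21 weeks (F10 and Ctsl), with 0 higher. F11, coagulation factor XI, had a log2 fold change of -0.91 at 11 weeks (SE 0.16, adjusted p = 0.00055). Ctsl, the lysosomal protease cathepsin L, was lower at both ages (-0.59 and -0.52, SE 0.11 each, adjusted p = 0.000672 and 0.0038). Kng1, the kininogen from which kallikrein releases kinins, was lower at 11 weeks (-0.37, SE 0.10, adjusted p = 0.011).

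Of 34 acute phase genes tested, 1 was higher and 4 lower at 11 weeks, and 3 were higher and 0 lower at 19-21 weeks, beside those shares of all genes. Their median log2 fold changes were -0.26 and 0.16. Lcn2, lipocalin 2, was higher at both ages (1.62 and 1.71, SE 0.34 and 0.36, adjusted p = 0.00242 and 0.00492). Ahsg, fetuin-A, a negative acute phase protein, was lower at 11 weeks (-0.67, SE 0.14, adjusted p = 0.00291), and Hp, haptoglobin, was higher at 19-21 weeks (0.71, SE 0.15, adjusted p = 0.00555).

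A list of 14 genes held the glucocorticoid receptor, whose ligand Serpina6 carries, its targets and enzymes of steroid metabolism. Of these, 1 was higher at each age, Sgk1 at 11 weeks and Fkbp5 at 19-21 weeks. The 2 that were lower at each age were the steroid enzymes Hsd11b1 and Akr1d1. The median log2 fold changes of the list were 0.15 and 0.11. Hsd11b1, which regenerates active glucocorticoid, was lower at both ages (-0.68 and -0.67, SE 0.14 each, adjusted p = 0.00231 and 0.00469). Akr1d1, a steroid reductase, was lower at both ages (-0.91 and -1.42, SE 0.21 each, adjusted p = 0.0049 and 0.00026). Fkbp5, a receptor co-chaperone, was higher at 19-21 weeks (1.09, SE 0.22, adjusted p = 0.00283).

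Genes known to respond to growth hormone and STAT5b, among them genes that differ between the sexes in liver, were called at 11 weeks. Of 21 tested, 5 were higher and 6 lower at 11 weeks, and 0 were called in either direction at 19-21 weeks. Cyp7b1, an oxysterol hydroxylase, had a log2 fold change of -2.66 at 11 weeks (SE 0.31, adjusted p = 7.28e-06) and Cyp17a1, a steroid hydroxylase, 3.15 (SE 0.46, adjusted p = 9.15e-05). Cyp2b13 had at most 0.198 CPM in 11-week-old controls and 0 to 50.9 CPM in Titan mice of that age. Of 17 liver transcription factors and cytokine signalling genes, 2 were lower at 11 weeks, Il6ra (-1.0, SE 0.25, adjusted p = 0.0104) and Foxa2 (-0.66, SE 0.18, adjusted p = 0.0143), and 0 were called at 19-21 weeks.

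Markers of the cell types a liver sample can hold were read beside these values. At 11 weeks 3 of 7 hepatocyte markers were lower in Titan liver (Apoa1, Cps1 and Ahsg), while their summed level overlapped (105000 to 130000 CPM in controls, 106000 to 129000 in Titan mice). Of the other lists, 2 of 8 endothelial markers and the single tested pancreas marker (Cela1) were lower. By contrast, 1 of 3 leukocyte markers (Cd3e), 1 of 8 stellate cell markers (Des), 2 of 4 adipocyte markers (Fabp4 and Cidec) and 1 of 6 erythroid markers (Hba-a2) were higher, and none of 8 Kupffer cell and 5 cholangiocyte markers was called. At 19-21 weeks none of the 7 hepatocyte markers was called, and their median log2 fold change was 0.04. Endothelial Lyve1 and Oit3 (2 of 8) and pancreas Cela1 were lower at that age, and leukocyte Cd3e (1 of 3), adipocyte Cidec (1 of 4) and erythroid Hba-a2 (1 of 6) were higher. No neutrophil marker was tested, and their sum stayed at 3.88 CPM or less in every library. The part of these differences in the Serpina levels was not tested.

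Over the 20 mice, the genes most like each member were found by Pearson correlation of log2 CPM, as a description of libraries that share groups and depth. Serpina3m was most like Serpina3c, another gene of the cluster (r = 0.82), followed by Zfat (0.75). Serpina3n was most like Mug1, a protease-trapping murinoglobulin (0.93), and Ces3a (0.89), and Serpina1c like Ces3a (0.85) and Pzp (0.81). Serpina10 was most like the fibrinogen gene Fga (0.85) and Pdia5 (0.85), Serpina1a like Ddi2 and Cyp7b1 (0.85 each), and Serpina1b like Cpb2 (0.82) and Mup20 (0.79). For Serpina3k they were C2cd4d (0.85) and Plcb4 (0.84), and for Serpina6 Cdyl2 (0.74) and Cnot2 (0.72). C2cd4d (0.195 to 1.58 CPM) and Cdyl2 (1.31 to 3.08 CPM) were low in every mouse. Serpina1d and Serpina1e fell into separate clusters of mice, so that no coefficient is given. The genes most like them were C9 and C8b, of the terminal complement complex, for Serpina1d, and Rpn1 and Serpina1d for Serpina1e. Of the 20 genes most like each member, 0 to 3 lay on chromosome 12, which held 3.71% of the genes tested.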

How the data were processed

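Liver RNA was depleted of ribosomal RNA and sequenced from a strand-marking library in 20 mice, 5 biological replicates in each of 4 groups. The authors aligned reads with STAR 2.5.3a to GRCm38 and counted them per gene with the Ensembl 97 annotation, without multi-mapped or ambiguous reads, and deposited unnormalized whole-number counts for each strand setting. Read length is not given in the sources used here. Sense-strand counts were used, since they held 96.83% to 97.55% of the reads on genes. Symbols came from GENCODE M21 for 55480 of 55573 identifiers. Following the study, 1562 genes of chromosome Y and 107 histone genes were removed.

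Counts were tested in edgeR 4.0.16 (R 4.3.3) with filterByExpr, TMM and the quasi-likelihood test, 1 fit over the 4 groups, Benjamini-Hochberg adjustment over 13783 genes and a threshold of 0.05. The step was tested on simulated data. Each SE of a log2 fold change was derived as its absolute value divided by the square root of the quasi-likelihood F statistic. Log2 CPM used a prior count of 2. Exact permutation tests were two-sided over the mice of 2 groups. Coding sequences were aligned with MAFFT 7.526. DESeq2 1.42.0, other scalings, filters, counts over both strands, a replicate block and the omission of each mouse were the alternatives, and robust dispersions and the permutation test were added after seeing the data. Animals with the same replicate number were not paired: their deviations from group means correlated between -0.144 and 0.175. Named genes were all 10 members, at most 3 called genes with the smallest p from each list, and the 2 genes most like each member. Dicer1, Serpina3c and Serpina16 were chosen after their values were seen. The members and the lists were chosen with earlier results of these data known.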

Additional observations from a re-analysis of the deposited data

Results flagged for a closer look

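In each of 48 sets of 5 values (10 genes and 2 family sums in 4 groups), the highest or lowest mouse was compared with its nearest neighbour, and 10 sets held a mouse far from the other 4 by Dixon's criterion. The criterion is set to flag about 1 in 20 independent sets of normally distributed values. The sets here hold unlogged CPM and the family sums contain member genes, so that rate does not apply to them. Control mouse 2 at 19-21 weeks accounted for 4 of them, with the lowest Serpina1a (939 CPM) and the highest Serpina1d (1156), Serpina1e (4193) and Serpina1 sum (11385). Titan mouse 4 at 11 weeks had the highest Serpina1c (2099.6 CPM) and Serpina3n (393) of its group. The others were Serpina3k in control mouse 5 at 19-21 weeks (8314 CPM, lowest), Serpina3m in Titan mouse 3 at 11 weeks (704, lowest), Serpina6 in control mouse 5 at 11 weeks (114, lowest) and Serpina6 in Titan mouse 4 at 19-21 weeks (188, highest).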

How the results depend on the processing

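At 11 weeks the count of members called lower, 5, was 8 with DESeq2, 3 with a minimum log2 change of 0.5 added to the call rule, 4 with total reads, no filter or only the groups compared, and 4 to 8 without 1 mouse. At 19-21 weeks the count of 1 was 0 with total reads in place of TMM scaling and 0 with the fold limit, and 0 to 1 without 1 mouse. With DESeq2, Serpina10 was called, giving 1 lower with age in control liver and 1 higher for the interaction, and without 1 mouse the counts higher were 0 to 1 with age in Titan liver and 0 to 2 for the interaction. No alternative called a member higher in Titan than in control liver. The replicate block gave 7 members lower at 11 weeks, adding Serpina1b and Serpina1c, and changed no other call. The share of all genes called under each alternative is not given, and the causes were not tested.

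Signs turned only for differences near 0 that were not called. With total reads, under which the median log2 change of all genes was 0.092 at 19-21 weeks (0.009 with TMM scaling) and 0.102 with age in Titan liver (0.02), Serpina1a was 0.04 at 19-21 weeks and 0.04 with age in controls, and Serpina3k was 0.07 with age in Titan liver. Serpina1e with age in Titan liver was -0.02 without a count filter and 0.00 over both strands, and the Serpina3m interaction was -0.01 with DESeq2, RLE size factors, no filter, both strands or the replicate block. Without 1 mouse, the ranges were -0.06 to 0.05 (Serpina1a, age in controls), -0.07 to 0.09 (Serpina1b, age in controls), -0.08 to 0.10 (Serpina1e, age in Titan liver), -0.05 to 0.04 (Serpina3k, age in Titan liver), -0.27 to 0.11 (Serpina3m, age in controls), -0.05 to 0.29 and -0.10 to 0.19 (Serpina3m, 11 and 19-21 weeks), -0.24 to 0.15 (Serpina3m, interaction) and -0.06 to 0.13 (Serpina6, 11 weeks). Family sums and paralog shares moved by less than 1 SD under every alternative tried. Leaving out 1 mouse moves a group mean by less than 1 SD of that group whatever its values. This rule therefore cannot test the omission of a mouse. The log2 ratio of the Serpina1 sums at 19-21 weeks was -0.36 with all mice and -0.42 to -0.18 without 1 mouse. The share of unique windows limits comparison of levels between copies.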

Other observations

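Reads on the strand opposite the 10 genes were few in every library. Serpina3k had 2 to 79 such reads per library and Serpina6 0 to 1, and over a group they made up at most 0.102% of the reads on both strands of any member, the highest share being that of Serpina10 in 19-21-week-old Titan mice.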
